A study of Mus musculus with 2 samples.

Results

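Urothelial cells of the mouse bladder that held at least as many Krt5 UMIs as uroplakin UMIs are described here, and they are called Krt5-dominant cells. UMIs are molecule-tagged reads, so that each UMI stands for 1 captured transcript. The members were chosen by their counts of Krt5, Krt15, Upk1a, Upk2 and Upk3a. Here and below, uroplakin UMIs and uroplakin shares count only Upk1a, Upk2 and Upk3a. A cell had to hold at least 10 UMIs of these 5 genes per 10000 of its UMIs, under 10 of Col1a1, Col1a2, Col3a1 and Dcn, under 5 of Msln and Lrrn4, and at least 1 Krt5 UMI. The rule found 404 cells among 11660 kept, of which 322 came from the Tom- and 82 from the Tom+ library. The 2042 gated urothelial cells with more uroplakin than Krt5 UMIs, or with no Krt5 UMI, are called uroplakin-dominant, and they served as the comparison.

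Both libraries came from the bladder of 1 male mouse aged 25 months of the genotype p16-CreERT2/R26-LSL-tdTomato. In this genotype a tamoxifen-dependent Cre recombinase is driven by p16, the cell-cycle inhibitor encoded by Cdkn2a, and Cre activity switches on the red fluorescent protein tdTomato at the Rosa26 locus, after which the cell and its descendants stay marked. Tamoxifen was injected on 5 days, and the bladder was taken 2 weeks later. Cells negative for the leukocyte antigen CD45 and for the dead-cell dye DAPI were sorted into tdTomato-negative (Tom-) and tdTomato-positive (Tom+) fractions, and droplet libraries that read the 3' ends of transcripts were made from each. The series' design text calls the sorted cells stromal, whereas the members are epithelial. With 1 library in each group, from the same animal, no test was possible, and every interval below covers counting error only.

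The urothelium is the stratified epithelium that lines the bladder. Its basal cells sit on the basement membrane and are known for the keratin Krt5 and for p63, the transcription factor encoded by Trp63. Intermediate cells lie above them, and superficial umbrella cells cover the lumen with plaques of uroplakins, the membrane proteins encoded by the Upk genes.

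Some features of the libraries bear on all values. In all, 966 barcodes occurred in both libraries. A barcode found in both was kept only where one copy had over 10 times the UMIs of the other, which left 1 Tom- member and 19 of the 82 Tom+ members with a barcode also seen in the other library. No barcode was a member in both. The summed members held 10684702 UMIs in Tom- and 2376167 in Tom+, so that 3 UMIs correspond to 0.281 and 1.26 CPM, a level of UMIs scaled to a total of 1e6. Median UMIs per member were 31600 in Tom- and 27730 in Tom+, against 38787 and 38245 in uroplakin-dominant cells. The median mitochondrial share was 4.00% of UMIs in Tom- members and 3.23% in Tom+ members.

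Members made up 16.8% (exact Clopper-Pearson 95% interval 15.2 to 18.6) of the 1915 gated urothelial cells of Tom- and 15.4% (12.5 to 18.8) of the 531 of Tom+. These intervals overlap. Of all Krt5-dominant cells 20.3% (16.5 to 24.6) were in the Tom+ library, close to the 22.0% (20.2 to 23.8) of uroplakin-dominant cells. Both were above the 14.9% (14.3 to 15.6) of all cells kept. These shares follow the numbers of cells sorted and loaded, and they are not rates of marking in the tissue.

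The rule divided a continuous range of cells. The median member drew 33.3% of its Krt5 plus uroplakin UMIs from uroplakins in Tom- and 34.7% in Tom+. Just inside the limit, with uroplakin shares of 45% to 50%, lay 67 Tom- and 19 Tom+ members. The Tom- cells there had median counts of 32 Krt5 and 29 uroplakin UMIs. Just outside, above 50% and up to 55%, lay 64 and 20 cells, and the Tom- ones had medians of 30.5 and 34.5 UMIs. No gap separated the groups at the limit, as the plot of single cells shows. A few members rested on little: 18 Tom- and 5 Tom+ members had under 5000 UMIs, and 19 and 6 had under 3 Krt5 UMIs.

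**Figure D1:**
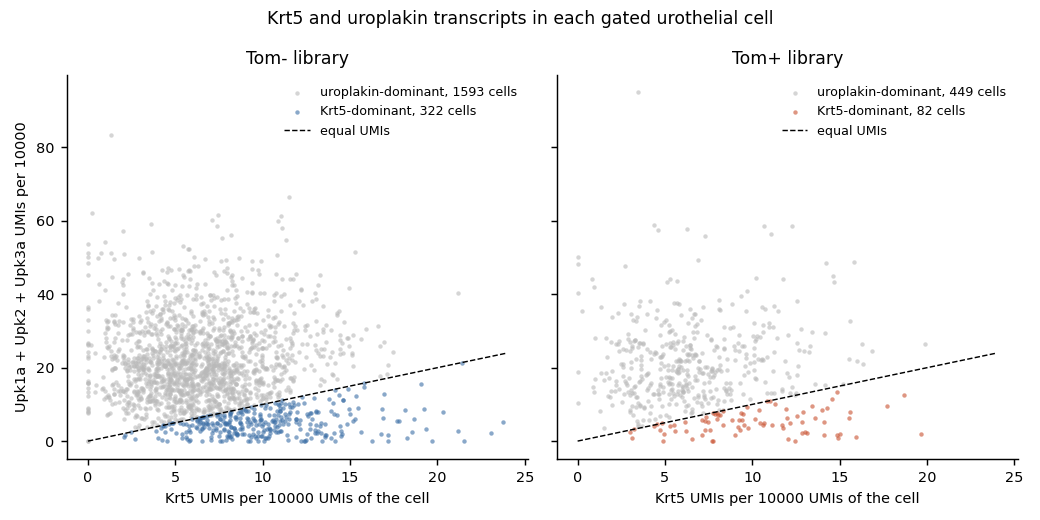
Each point is a gated urothelial cell, placed by its Krt5 UMIs (x axis) and its summed Upk1a, Upk2 and Upk3a UMIs (y axis), both per 10000 UMIs of the cell, with the Tom- library at left and Tom+ at right. Coloured points are the 322 and 82 Krt5-dominant cells, grey points the 1593 and 449 uroplakin-dominant cells, and the dashed line marks equal counts, which runs through a continuous cloud.

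The name basal was checked on its markers. Krt5 and Krt15 belong to the rule, so their levels are a description. Krt5, which pairs with type I keratins in the basal layer, stood at 1031 (Tom-) and 1019 CPM (Tom+) in the members. Krt15, another basal keratin, stood at 3371 and 3324 CPM. Trp63, which the rule did not use, stood at 327 and 319 CPM and had a UMI in 96.3% and 92.7% of members. Fibroblast-gated cells, which should lack it, held Trp63 at 3.33 and 1.02 CPM, with a UMI in 3.45% and 1.17% of cells at median depths of 12236 and 9565 UMIs. These 3 genes were also plentiful in uroplakin-dominant cells, where Krt5 stood at 651 and 678 CPM, Krt15 at 2830 and 2725 CPM, and Trp63 at 221 and 212 CPM. Thus Krt15 was 1.19 (95% counting interval 1.18 to 1.20) and 1.22 (1.19 to 1.25) times higher in members, and Trp63 1.48 (1.42 to 1.53) and 1.503 (1.39 to 1.63) times.

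Some other markers did not mark these cells out as basal. Krt14, the keratin of a basal subset, stood at 6.74 and 5.47 CPM, and Krt17 had no UMI in Tom- and 3 UMIs, all in 1 cell, in Tom+. Upk1a, a uroplakin of the luminal plaque that the rule used, stood at 417 and 448 CPM. After thinning to 2000 UMIs per cell, 53.1% of Tom- and 46.8% of Tom+ members held an Upk1a UMI, against 2.32% and 1.02% of fibroblast-gated cells, whose gate also limits it. Without thinning, 91.0% and 91.5% of members did, against 12.3% and 7.35%. Krt18, a keratin of simple and luminal epithelia, stood at 913 and 969 CPM. Krt4, listed as a marker of these cells, stood at 245 and 254 CPM, against 244 and 223 CPM in uroplakin-dominant cells, so that it did not separate the groups in Tom-. Others on the basal list did: of 12 measured, Cdh3, Gsdmc2, Gsdmc3 and Col17a1 were at least 2 times higher than in uroplakin-dominant cells in both libraries. None were 2 times lower. Over all measured genes 1.53% were at least 2 times higher in both libraries and 0.668% at least 2 times lower. Having 0 lower in a list of this size is near that share. The list medians, which include Krt5 and Krt15 of the rule, were 0.69 (Tom-) and 0.65 (Tom+) on the log2 scale, beside 0.14 and 0.12 over all measured genes. As the markers were mixed, the cells are called by their rule and not by the name basal.

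Promoters of the genes at both ends of the split are shown so that the regulatory sequence can be read beside the levels. Of 8 genes looked up, 4 were matched in RefSeq's promoter table (build GRCm38.p6): Krt5 and Upk3a, which set the split, Gsdmc3, and Col17a1, which encodes a hemidesmosomal collagen. Each line gives the 250 bases before the start site, 5′ to 3′ on the gene's strand, and capitals mark matches to the p63-family half-site, searched on both strands. Krt5 (minus strand, chr15:101712906-101713155) held 1 match, Upk3a (plus strand, chr15:85016891-85017140) held 1, and Gsdmc3 (minus strand, chr15:63878559-63878808) and Col17a1 (minus strand, chr19:47692043-47692292) held none. A match was present in 7.13% of the table's 32851 promoters of this length.
Krt5: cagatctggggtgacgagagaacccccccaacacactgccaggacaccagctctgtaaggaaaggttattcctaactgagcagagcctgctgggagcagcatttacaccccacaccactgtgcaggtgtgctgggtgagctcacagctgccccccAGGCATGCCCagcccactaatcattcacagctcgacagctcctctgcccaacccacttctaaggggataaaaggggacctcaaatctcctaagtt
Upk3a: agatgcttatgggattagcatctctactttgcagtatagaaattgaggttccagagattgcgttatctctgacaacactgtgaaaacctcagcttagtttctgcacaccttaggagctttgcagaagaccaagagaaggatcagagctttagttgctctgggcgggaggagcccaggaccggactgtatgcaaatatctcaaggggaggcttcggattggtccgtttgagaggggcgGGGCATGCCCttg
Gsdmc3: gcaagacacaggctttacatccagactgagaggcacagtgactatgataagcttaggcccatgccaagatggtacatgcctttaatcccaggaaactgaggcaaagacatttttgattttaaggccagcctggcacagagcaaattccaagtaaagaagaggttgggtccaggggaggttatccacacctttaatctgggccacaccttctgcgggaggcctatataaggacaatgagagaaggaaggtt
Col17a1: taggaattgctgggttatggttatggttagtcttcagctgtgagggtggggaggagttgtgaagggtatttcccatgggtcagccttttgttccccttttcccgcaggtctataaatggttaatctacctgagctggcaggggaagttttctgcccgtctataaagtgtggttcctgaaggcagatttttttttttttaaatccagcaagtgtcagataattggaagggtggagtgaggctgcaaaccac

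Members differed among themselves along the uroplakin share. In Tom-, 18 members held no UMI of Upk1a, Upk2 or Upk3a (median 9240 UMIs per cell, shallower than the rest). Another 87 had a share above 0 and up to 25%, and 217 a share above 25% and up to 50%. Col17a1 stood at 136 CPM (exact Poisson 95% interval 94.7 to 189) in the first, 98.3 (86.7 to 111) in the second and 57.9 (52.7 to 63.5) in the third. Trp63 went from 450 (372 to 540) through 360 (337 to 383) to 311 CPM (299 to 324), so that both were highest in the first class. Other uroplakins were present in that class. Over the Tom- classes Upk1b stood at 179, 144 and 181 CPM, Upk3bl at 85.4, 84.6 and 47.2, and Upk3b at 3.88, 29.6 and 58.8. In Tom+ the first class held 4 cells with a median of 2107.5 UMIs. Trp63 and Col17a1 had no UMI there, which allows up to 235 CPM by the exact interval, and Krt18 stood at 1147 CPM (680 to 1813), so that this class did not follow the Tom- order. Between the other classes of Tom+, of 16 and 62 cells, Col17a1 went from 134 (101 to 173) to 62.6 CPM (51.9 to 74.8) and Trp63 from 429 (369 to 496) to 297 CPM (273 to 322).

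The sparse Krt14 transcripts lay at the same end. Krt14 stood at 38.8 CPM (18.6 to 71.4), 17.1 (12.5 to 22.9) and 2.18 (1.27 to 3.49) over the 3 Tom- classes, and at 18.8 (8.10 to 37.0) and 0.517 (0.0131 to 2.88) in the upper classes of Tom+. In the 4 cells it had 4 UMIs. Gsdmc3, a gasdermin, went from 175 CPM (127 to 234) to 94.1 (82.8 to 107) and 81.7 (75.5 to 88.3) in Tom-. Krt18 ran the other way, from 575 (486 to 675) through 764 (731 to 798) to 974 CPM (952 to 996). Gsdmc2 and Krt4 showed no steady order, with Gsdmc2 at 540, 377 and 437 CPM and Krt4 at 365, 226 and 248 CPM. Krt5, Upk1a, Upk2 and Upk3a themselves define the classes, and their change across them is not a result.

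**Figure D2:**
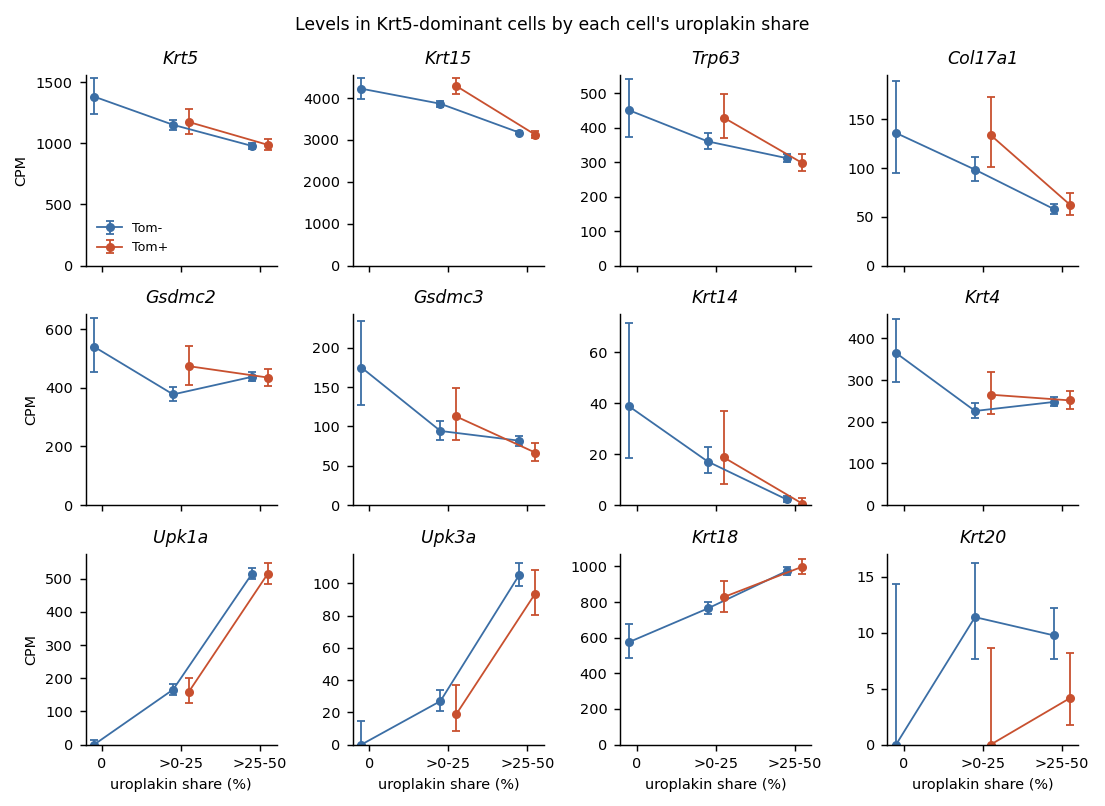
Level of 12 genes in CPM (y axis, from 0) in Krt5-dominant cells grouped by each cell's uroplakin share of its uroplakin plus Krt5 UMIs (x axis), with exact Poisson 95% intervals. Blue points are Tom- and red-orange points Tom+, whose 4 cells without Upk1a, Upk2 and Upk3a UMIs are not drawn. In Tom-, Col17a1, Trp63 and Krt14 were highest at low shares and Krt18 at high shares.

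Leiden clustering of the members of both libraries gave 5 sub-clusters, which are numbered and not named. Sub-cluster 0 (114 Tom- and 21 Tom+ cells) had among its leading genes the stress-response genes Ppp1r15a, Tiparp and Dusp1 and the glycolytic enzyme Hk2. It held Krt14 at 15.8 CPM and Col17a1 at 85.1 CPM. Sub-cluster 1 (106 and 47 cells) was led by the seminal vesicle transcripts Svs2 and Pate4, by the glutathione transferase Gsta2, by Upk3a and by Uchl1. Its share was 57.3% (45.9 to 68.2) among Tom+ members and 32.9% (27.8 to 38.3) among Tom- ones. Sub-cluster 2 (66 and 11 cells) had among its leading genes Vps13c, Zbtb1, Peg3 and C3. Since the clustering used the same genes, these leading genes are a description.

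Sub-clusters 3 and 4 did not look like the rest. Sub-cluster 3 held 10 Tom- and 0 Tom+ cells. In it Krt5 stood at 852 CPM and Trp63 at 273 CPM, but Krt15 at 25.6, Gsdmc2 at 4.26 and Col17a1 at 4.26 CPM, while the superficial keratin Krt20 stood at 145 CPM. Of the rule's uroplakins, Upk3a stood at 405 CPM, against 38.8 to 117 CPM in the other sub-clusters. Upk1a stood at 72.4 CPM, against 319 to 491 CPM, and Krt4 at 0 CPM. The leading genes of sub-cluster 3 were Bex1, Tnfaip3, Krt20, Areg, an EGF receptor ligand, and Hoxb9. Sub-cluster 4 (26 and 3 cells) was led by the endothelial genes Flt1, Aqp1, Tmem252, Vwf and Plvap, with Krt5 still at 908 CPM. Of its 29 cells, 28 held at least 2 UMIs of 5 endothelial genes (Pecam1, Cdh5, Kdr, Emcn and Egfl7) per 10000 UMIs, as did 28 Tom- and 4 Tom+ members in all. Their median depth was 38296 UMIs in Tom-, against 31206.5 in the other members, and 24505.5 in Tom+, against 28407.5.

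Set beside uroplakin-dominant cells, 119 of 7780 measured genes (1.53%) were at least 2 times higher in Krt5-dominant cells in both libraries and 52 (0.668%) at least 2 times lower, after adding 1 CPM to each level. A gene counted as measured with at least 10 CPM in 1 of the compared sums and at least 20 UMIs over both. The median over all measured genes was 0.14 on the log2 scale in Tom- and 0.12 in Tom+. The rule split the cells on genes of this same contrast, so the values that follow describe the split and are not tests. Without the cells holding endothelial transcripts, 87 of the 119 remained 2 times higher. Among the 32 that did not were Fabp4, a fatty acid carrier of endothelium and fat cells, the water channel Aqp1, Cxcl12, Apoe, Klf2 and the collagen Col4a1.

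Genes of attachment to the basement membrane stood out among the higher ones. Of 28 measured members of this list, 7 were at least 2 times higher in both libraries and 0 lower, beside 1.53% and 0.668% over all measured genes. The list medians were 0.64 and 0.70 on the log2 scale. Col17a1 stood at 69.7 (Tom-) and 74.9 CPM (Tom+) in the members, against 14.5 and 13.6 CPM in uroplakin-dominant cells, ratios of 4.81 (4.36 to 5.31) and 5.51 (4.51 to 6.73). Itga3, a laminin-binding integrin subunit, stood at 46.8 and 46.7 CPM against 12.2 and 11.02 CPM. Bcam, a laminin receptor, stood at 226 and 217 CPM against 99.3 and 94.9 CPM. Npnt, Lamb1 and Col4a2, an integrin ligand and 2 chains of basement membrane proteins, were 3.06, 2.84 and 2.88 times higher in Tom- and 2.36, 3.99 and 5.43 times in Tom+. Without the cells holding endothelial transcripts Col4a2 came to 3.03 and 3.45 times. The seventh, Col4a1, came to 2.02 and 3.68 times without the cells holding endothelial transcripts, in Tom- below the limit once 1 CPM was added.

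The hemidesmosomal partners of Col17a1 differed less. Itgb4, the integrin subunit of hemidesmosomes, stood at 118 and 108 CPM against 54.9 and 56.0 CPM. Itga6, its partner, stood at 120 and 111 CPM against 72.6 and 67.8 CPM. The cytolinker Dst stood at 279 and 281 CPM against 163 and 158 CPM. All 3 were 1.64 to 2.14 times higher. These were singled out after their values were seen, as were the genes of the receptor and ligand groups below that are named as past 2 times.

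Genes of the superficial cells were among the lower ones. Of 13 measured uroplakin plaque and superficial cell genes, 7 were at least 2 times lower in both libraries, beside 0.668% over all measured genes. Among these 7 were the rule's own Upk1a, Upk2 and Upk3a. Psca, a surface antigen of upper layers, stood at 3.18 and 4.21 CPM against 52.4 and 56.1 CPM. Snx31, a sorting nexin that binds uroplakins, stood at 38.0 and 27.4 CPM against 118 and 123 CPM. Upk3bl was the exception in this list, at 57.4 and 58.1 CPM in members against 16.5 and 14.8 CPM. Among 10 measured keratins, 0 were 2 times higher and 1, Krt20, was lower, beside 1.53% and 0.668% over all measured genes. Krt7, Krt8, Krt18 and Krt19, the simple-epithelial keratins, stood at 0.55 to 0.86 times their level in uroplakin-dominant cells.

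Outside the luminal list, Fmo5, a flavin monooxygenase, stood at 294 and 287 CPM in members against 1217 and 1220 CPM in uroplakin-dominant cells. Akr1b3, aldose reductase, stood at 360 and 336 CPM against 973 and 998 CPM. Ivl, the cornified envelope protein involucrin, stood at 114 and 125 CPM against 252 and 275 CPM. These differences were of like size in both libraries. The lowest 15 genes also held Cyp4f15, Hilpda, St8sia6, Lypd3 and Wfdc15b, at 0.246 to 0.451 times in Tom- and 0.241 to 0.41 times in Tom+.

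Some Notch genes were higher and others lower. Dll1 and Jag2, 2 membrane ligands of Notch receptors, stood at 21.2 and 140 CPM in Tom- members and 18.1 and 149 CPM in Tom+ members. In uroplakin-dominant cells they stood at 3.70 and 61.2 CPM in Tom- and 3.99 and 56.3 CPM in Tom+. Lfng, a glycosyltransferase that modifies Notch receptors, stood at 22.6 and 31.6 CPM against 8.39 and 8.26 CPM. Thus 2 ligands and 1 modifier were higher in members. Nrarp, a target and feedback inhibitor of Notch signalling, stood at 12.9 and 14.7 CPM against 62.3 and 72.6 CPM. Hes1, another Notch target, stood at 331 and 345 CPM against 580 and 626 CPM. Notch3, a receptor better known from mural cells, stood at 5.43 and 2.53 CPM against 22.5 and 21.7 CPM, while Notch1 stood at 150 and 152 CPM against 172 and 173 CPM. Of 13 measured members of the list, 3 were past 2 times higher and 2 past 2 times lower, beside 1.53% and 0.668% over all measured genes. The list medians, 0.12 in both libraries, were close to those of all genes.

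Of 24 measured Hedgehog, Wnt and BMP genes, 1 was at least 2 times higher and 1 lower, beside 1.53% and 0.668% over all measured genes. In a list of this size 1 gene each way is not read as a trait of the list. The list medians were 0.34 (Tom-) and 0.33 (Tom+) on the log2 scale, beside 0.14 and 0.12 over all measured genes. Wnt10a, a Wnt ligand, stood at 15.7 and 18.5 CPM against 1.79 and 1.52 CPM, ratios of 8.77 and 12.2. Bmp2 stood at 53.4 and 46.3 CPM against 110 and 98.6 CPM. Shh, the Hedgehog ligand that basal urothelial cells are known to secrete towards the stroma, did not mark the members: it stood at 240 and 221 CPM against 228 and 222 CPM. Wnt4 stood at 224 and 215 CPM against 154 and 154 CPM.

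Of 15 measured cytokine and chemokine genes, 5 were at least 2 times higher and 0 lower, beside 1.53% and 0.668% over all measured genes. Il33, the nuclear alarmin of epithelial cells, stood at 52.3 and 64.8 CPM against 18.2 and 16.7 CPM. Il1r2, the decoy receptor of interleukin 1, stood at 12.4 and 13.05 CPM against 0.984 and 0.762 CPM. The chemokine scavenger Ackr3 stood at 32.9 and 41.2 CPM against 15.9 and 14.9 CPM, and Tnfrsf12a, the receptor of TWEAK, at 12.3 and 11.8 CPM against 4.00 and 3.87 CPM. These 4 kept their differences without the cells holding endothelial transcripts. Cxcl12, the ligand of Ackr3, did not: it stood at 24.2 and 10.9 CPM in all members and at 5.06 and 3.98 CPM without those cells.

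Gasdermins are pore-forming proteins, and the mouse has several neighbouring Gsdmc genes on chromosome 15. Gsdmc2 stood at 425 (Tom-) and 439 CPM (Tom+) in the members against 200 and 181 CPM, ratios of 2.12 (2.05 to 2.20) and 2.43 (2.27 to 2.61). Gsdmc3 stood at 87.0 and 74.5 CPM against 32.0 and 26.2 CPM, ratios of 2.72 (2.51 to 2.94) and 2.84 (2.38 to 3.39). Both were higher in the members of each library. Gsdmc4, the next gene of the row, had 8 UMIs in Tom- and 2 in Tom+. The last 300 bases of the longest transcripts of Gsdmc3 and Gsdmc4 were 89.0% identical, against 39.2% for Gsdmc2 and Gsdmc3. Whether counts of Gsdmc3 and Gsdmc4 were split or lost between them was not tested. Of 10 measured gasdermins and caspases, Gsdmc2 and Gsdmc3 were past 2 times and 0 were lower, beside 1.53% and 0.668% over all measured genes. Gsdmd, the executioner of inflammatory pyroptosis, stood at 28.5 and 27.4 CPM against 24.9 and 24.2 CPM.

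The highest 15 genes of the contrast also held Ly6a, a surface protein, at 297 and 281 CPM against 66.4 and 55.7 CPM. Ajuba, a LIM protein of adherens junctions and Hippo signalling, stood at 50.7 and 59.8 CPM against 12.6 and 13.5 CPM. Thbs1, the matrix protein thrombospondin, stood at 153 and 158 CPM against 50.2 and 47.6 CPM. Adm, the peptide hormone adrenomedullin, stood at 82.6 and 67.3 CPM against 24.5 and 25.7 CPM. Rdx, Ltbp4, Upk3bl, Tgfbi, Agrn, Rgs10 and S100a10 were 2.75 to 4.85 times higher. Except for Fabp4, all 15 remained 2 times higher without the cells holding endothelial transcripts. The cyclin gene Ccnd2, which drives entry into the cell cycle, stood at 215 and 209 CPM against 101 and 95.1 CPM, while the proliferation marker Mki67 stood at 0.749 and 0.421 CPM and Top2a had no UMI in either library's members.

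**Figure D3:**
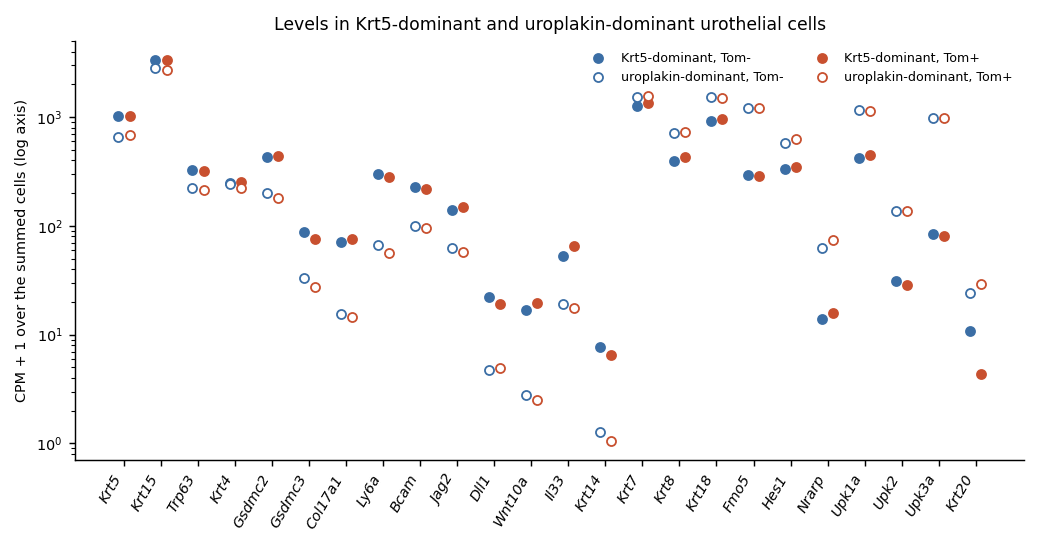
Level of 24 genes (y axis, CPM plus 1 on a log axis) in the summed Krt5-dominant cells (filled points) and uroplakin-dominant cells (open points), with Tom- in blue and Tom+ in red-orange. Filled points lie above open ones from Gsdmc2 to Krt14 and below them from Krt7 to Krt20, in both libraries, while Krt4 overlaps.

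The libraries were then compared within the Krt5-dominant cells, which asks how cells with and without the p16 lineage mark differed. The tdTomato transcript was the check of the sort. Its level was 896 CPM among Tom+ members and 39.7 CPM among Tom- members, a ratio of 22.6 (20.3 to 25.1). With every cell thinned to 2000 UMIs, 73.4% of Tom+ and 6.19% of Tom- members held a tdTomato UMI, against 82.4% and 8.85% of uroplakin-dominant cells. Without thinning, 91.5% and 58.1% of members did. The Tom- level lay between those of other Tom- cells, 21.2 CPM in fibroblast-gated and 86.2 CPM in endothelial-gated cells. Where the tdTomato transcripts of Tom- cells came from was not tested.

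Cdkn2a itself was not measurable in these cells. It had 2 UMIs in the 322 Tom- members and 1 UMI in the 82 Tom+ members, 0.187 and 0.421 CPM, and the ratio of 2.25 had a counting interval from 0.0381 to 43.2. Fibroblast-gated cells held 7.81 (Tom-) and 10.6 CPM (Tom+). Cdkn1a, which encodes the p21 inhibitor, stood at 226 (Tom-) and 186 CPM (Tom+) in the members, a ratio of 0.83 (0.74 to 0.91). Cdkn2b, the neighbour of Cdkn2a, stood at 16.5 and 21.5 CPM, a ratio of 1.30 (0.93 to 1.79). Among 20 measured cell-cycle inhibitors and senescence regulators, 0 were 1.5 times higher and 0 lower in Tom+, and the same held for 20 measured p53 target genes. Over all 8198 measured genes 0.768% were higher and 2.78% lower, so that 0 in lists of this size is near the share over all genes.

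Over all genes the Tom+ and Tom- members were close. Of 8198 measured genes, 63 (0.768%) were at least 1.5 times higher and 228 (2.78%) at least 1.5 times lower in Tom+, after adding 1 CPM, and 83.3% lay within 1.25 times. The median log2 ratio was -0.03. At 50 CPM or more in 1 library, 7 of 2712 genes were higher and 13 lower. Of the 228 lower genes, 129 were at least 2 times higher in fibroblast-, mesothelial- or endothelial-gated Tom- cells than in the Tom- members. How many of all 8198 measured genes meet this limit was not counted, so this number is not read as a trait of the lower genes. Leaving out barcodes found in both libraries changed the counts to 117 higher and 582 lower.

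The 6 listed markers were close in the libraries. Krt5 and Krt15 chose the members in both libraries, so their ratios are a description. Krt5 had a ratio of 0.99 (0.95 to 1.03), Krt15 of 0.99 (0.96 to 1.01), Trp63 of 0.98 (0.90 to 1.06), Krt4 of 1.04 (0.95 to 1.13), Gsdmc2 of 1.03 (0.97 to 1.11) and Gsdmc3 of 0.86 (0.72 to 1.01). Each of these intervals included 1. Among 12 measured basal markers and 13 measured superficial and intermediate markers, 0 were past 1.5 times in either direction. Over all measured genes 0.768% were higher and 2.78% lower. Col17a1 had a ratio of 1.07 (0.91 to 1.27).

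Of the 12 genes ranked highest in Tom+, 5 were past 1.5 times. Fabp4 stood at 75.5 (Tom-) and 167 CPM (Tom+), but 1 Tom+ cell held 248 of its 397 UMIs there. Its log2 ratio of 1.14 turned to -0.56 without the cells holding endothelial transcripts and to -2.26 without barcodes found in both libraries. The value of Fabp4 thus rests on a few cells. Hist1h1c, a linker histone, stood at 37.8 and 70.3 CPM, a ratio of 1.86 (1.54 to 2.23), and its largest count in 1 cell was 16 UMIs in each library. Gstp1, a glutathione transferase that detoxifies electrophiles, stood at 166 and 266 CPM, a ratio of 1.60 (1.46 to 1.75). Gsta2, another glutathione transferase, stood at 49.3 and 75.8 CPM, a ratio of 1.54 (1.29 to 1.82). It fell short of 1.5 times under 5 of 15 alternatives, with log2 ratios from 0.39 to 0.57 there against 0.61 in all members. Sprr2a3, a cornified envelope precursor, stood at 31.0 and 50.9 CPM, with 72 of its 121 Tom+ UMIs in 1 cell. The direction of Sprr2a3 thus rests on that cell. Gstp1, Gsta2 and Sprr2a3 have near-identical copies in the genome, so their counts are uncertain.

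The other 7 of these genes lay under 1.5 times. They were Sgk1, Satb1, Med15, Hist1h4d, Bnip3, Plxnb1 and Scnn1g, with ratios from 1.32 for Scnn1g to 1.495 for Sgk1. In uroplakin-dominant cells Gstp1 had a ratio of 1.43 and Hist1h4d of 1.46, while Gsta2, Satb1, Med15, Bnip3 and Scnn1g lay between 0.92 and 1.03. Whether these ratios differed between the groups of cells could not be tested over animals. Of 35 measured glutathione and oxidative stress genes, Gstp1 and Gsta2 were past 1.5 times higher and 0 lower, with a list median of 0.04 beside -0.03 over all genes.

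Of the 12 genes ranked lowest, 3 were past 1.5 times. Peg3, an imprinted zinc finger gene, stood at 173 (Tom-) and 88.8 CPM (Tom+), a ratio of 0.51 (0.44 to 0.59). Klf6, a transcription factor induced by stress and wounding, stood at 492 and 313 CPM, a ratio of 0.64 (0.59 to 0.69). Papss1, which makes the sulfate donor of the cell, stood at 57.8 and 37.9 CPM, a ratio of 0.65 (0.52 to 0.82). Peg3 had a UMI in 65.2% of Tom- and 41.5% of Tom+ members, and in 22.8% and 16.5% after thinning. Without barcodes found in both libraries their log2 ratios were -1.08, -0.65 and -0.68, against -0.96, -0.65 and -0.60 in all members. Papss1 missed 1.5 times under 4 of 15 alternatives, with log2 ratios from -0.58 to -0.36, and Klf6 under 1, with every cell given the same weight (-0.54).

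Neat1, a nuclear long noncoding RNA, stood at 993 (Tom-) and 679 CPM (Tom+), a ratio of 0.68 (0.65 to 0.72), and at 0.77 times in uroplakin-dominant cells. Rbms3, Ten1, Btbd7, Pan3, Mkrn1, Il6st, Sbno2 and Nfib lay between 0.67 and 0.71. All 12 of the lowest genes had ratios under 1 in uroplakin-dominant cells too, between 0.77 and 0.99. Without barcodes found in both libraries 23 of the 24 ranked genes stayed in their direction, Fabp4 being the exception. With the uroplakin share limited to 25%, 20 did: Med15 turned to -0.40 and Plxnb1 to -0.04 on the log2 scale, Sbno2 to 0.06 and Nfib to 0.36. With thinning 22 did, with Mkrn1 at 0.13 and Nfib at 0.23.

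**Figure D4:**
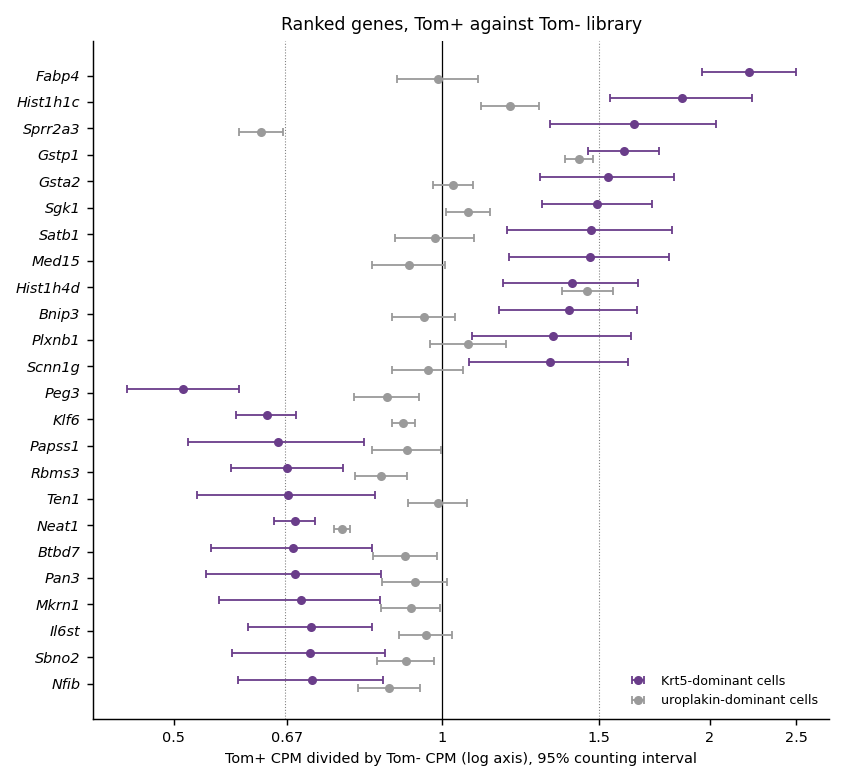
Ratio of Tom+ to Tom- CPM (x axis, log scale) with exact conditional binomial 95% intervals for the 12 highest and 12 lowest ranked genes (y axis), in Krt5-dominant cells (purple) and uroplakin-dominant cells (grey). Dotted lines mark 1.5 times in each direction. Sprr2a3 lies on opposite sides of 1 in the groups, at 1.64 and 0.63, but most of its Tom+ UMIs in Krt5-dominant cells lay in 1 cell. Its direction there rests on that cell.

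Gene lists showed small shifts between the libraries. The counts in each list stand beside 0.768% at least 1.5 times higher and 2.78% lower over all measured genes. Over 26 lists the median log2 ratio ran from -0.32, for mitochondrial transcripts, to 0.09, for Notch genes. Of 36 measured immediate-early and dissociation genes, which respond within minutes to stress or tissue digestion, 0 were 1.5 times higher and 2 lower, with a median of -0.12. Egr1 stood at 1061 (Tom-) and 772 CPM (Tom+), a ratio of 0.73 (0.69 to 0.76), and Jun at 2533 and 2133 CPM, 0.84 (0.82 to 0.87). In uroplakin-dominant cells Egr1 had a level of 826 (Tom-) and 829 CPM (Tom+). The 2 lower genes of this list were Nr4a1, at 38.8 and 20.2 CPM, and Dusp6, at 20.4 and 12.6 CPM.

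Interferon-stimulated genes had a median of -0.30 over 11 measured members, with 0 higher and 2 lower. These 2 were Rsad2, an antiviral enzyme, at 15.3 (Tom-) and 2.10 CPM (Tom+), and Ifi27l2a, at 10.8 and 4.21 CPM. Without doublet calls the log2 ratio of Rsad2 turned from -2.39 to 0.31. Among 77 ribosomal protein genes 0 were past 1.5 times, with a median of 0.07. Notch, Hedgehog, Wnt and BMP, growth factor, gasdermin, junction and antigen presentation lists each had 0 members past 1.5 times in either direction. In the keratin list too, 0 of 8 measured members were past 1.5 times.

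Transcripts of other cell types differed between the libraries inside the same members. The summed level of 11 fibroblast markers was 820 (Tom-) and 542 CPM (Tom+). Gsn, the most abundant of these, was not among the lower genes, so the sums understate the contrast of the others. Of 6 measured, 5 were at least 1.5 times lower in Tom+ and 0 higher, beside 2.78% and 0.768% over all measured genes. The list median was -1.95 on the log2 scale. Dcn alone, a collagen-binding proteoglycan, stood at 171 and 44.2 CPM. The 5 erythroid markers summed to 3845 and 34.5 CPM, with Hbb-bs at 2076 and 20.2 CPM. In Tom-, 6999 of the 22180 Hbb-bs UMIs lay in 1 cell, and 21742 in members with a uroplakin share above 25%, where Hbb-bs stood at 2790 CPM, against 147 and 198 CPM in the lower classes. Without doublet calls the erythroid sums were 426 and 34.4 CPM. Uroplakin-dominant cells showed the same contrast, with erythroid sums of 1964 and 30.9 CPM. Fibroblast-gated cells held Dcn at 19588 and 21136 CPM.

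The 10 blood endothelial markers summed to 222 (Tom-) and 138 CPM (Tom+) in the members, against 74.2 and 44.8 CPM in uroplakin-dominant cells, and 0 of the 10 were at 0. Without the cells holding endothelial transcripts these sums were 15.3 and 11.5 CPM, and without doublet calls 94.0 and 127 CPM, the other way round. Without barcodes found in both libraries they were 223 and 32.6 CPM. The prostate and seminal vesicle markers summed to 162 and 45.9 CPM in all members and to 44.95 and 46.1 CPM in those with at least 5000 UMIs, so that this difference lay in shallow Tom- cells. The 10 smooth muscle and mural markers summed to 44.5 and 14.3 CPM, with 4 of these at 0 in Tom+. Lymphatic endothelial markers summed to 58.1 and 77.9 CPM and Schwann and neural markers to 57.2 and 69.4 CPM, with Sox10 at 0 in both libraries. The 13 leukocyte markers summed to 2.81 and 2.95 CPM, and Ptprc, which encodes CD45, was at 0 in both. Mesothelial markers, which share Krt19, Upk3b and C3 with epithelium, summed to 1106 and 1143 CPM. The part of these transcripts in the Tom+ to Tom- differences was not tested, beyond the values given without some of the cells.

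**Figure D5:**
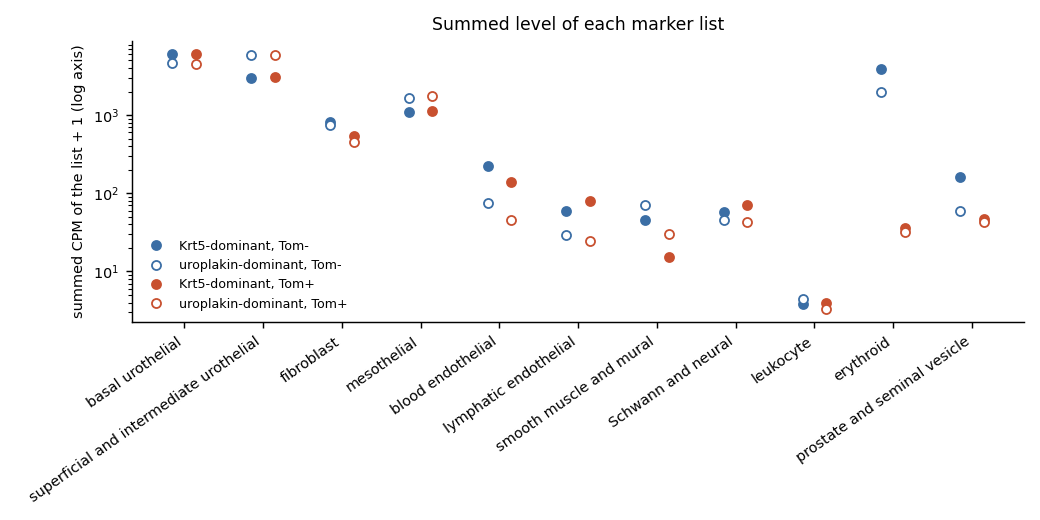
Summed level of each of 11 marker lists (y axis, CPM plus 1 on a log axis) in Krt5-dominant cells (filled) and uroplakin-dominant cells (open), with Tom- in blue and Tom+ in red-orange. Erythroid sums were 3845 (Tom-) and 34.5 CPM (Tom+) in the members, while both urothelial lists had nearly the same sum in the libraries.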

How the data were processed

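The deposited matrices hold raw UMI counts per gene and barcode, made by the authors with Cell Ranger 7.0.0 on build mm10 per the submitters' processing notes, and a software version of 3.0.2 stands in the matrix headers. How barcodes were called as cells is not given in the sources used here. Every row of the matrices named a gene.

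A cell was kept from 1000 UMIs and 500 genes upward when mitochondrial transcripts made up less than 15%, and the rule on barcodes and genes was then applied. UMIs of the members were summed per library and scaled to CPM. Log2 ratios had 1 CPM added, while ratios had none and carry exact conditional binomial intervals. Shares carry exact Clopper-Pearson intervals and levels exact Poisson intervals. A count of 3 set the floor. Members were clustered with Leiden (1500 variable genes, 20 components, 15 neighbours, resolution 0.5). Scrublet called 690 Tom- doublets (6.51% of passing barcodes) and 10 Tom+ doublets (0.528%), of which 18 and 1 were members. They were kept, and leaving them out was an alternative.

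Named genes were the listed markers, Gsdmc4, tdTomato, Cdkn2a and Cdkn1a, the 12 highest and 12 lowest of the library comparison and the 15 highest and 15 lowest of the cell comparison, at 50 CPM or more and in at least 10% of cells. The 5 leading genes of each sub-cluster and the extreme and most abundant members of 26 gene lists and 11 marker lists were added. Markers of other classes, ribosomal, mitochondrial, haemoglobin and clone-type genes and possible free RNA were left out of the rankings. Genes the text names beyond this rule were chosen after their values were seen. Some genes that the rule names are not reported here. Members and lists were chosen with earlier results of these data known. The calculation was tested on simulated data. Python 3.11.15, scanpy 1.11.5, leidenalg 0.10.2, scipy 1.17.1 and edgeR 4.0.16 were used. Coordinates come from a GRCm38 annotation.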

Additional observations from a re-analysis of the deposited data

Results flagged for a closer look

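Among the 216 named genes, 8 had a Tom+ to Tom- ratio on opposite sides of 1 in Krt5-dominant and in uroplakin-dominant cells. Their counting intervals excluded 1 in both kinds of cells. How many of all measured genes do so was not counted. The difference in ratio was not tested, since each group is 1 library of the same mouse. Sprr2a3 had a ratio of 1.64 (1.32 to 2.03) in Krt5-dominant cells and 0.63 (0.59 to 0.66) in uroplakin-dominant cells, with 72 of its 121 Tom+ UMIs in the members in 1 cell. Its direction in the members thus rests on that cell, which the counting interval does not cover. The other 7 lay between 0.78 and 1.13 in both groups of cells. The immediate-early genes Jun, Junb and Fos had ratios of 0.84, 0.93 and 0.91 in Krt5-dominant cells and of 1.03, 1.03 and 1.02 in uroplakin-dominant cells. Hk2, a hexokinase, had ratios of 0.78 and 1.13. Wfdc2, a secreted protease inhibitor, had ratios of 1.04 and 0.99, and Rps15, a ribosomal protein gene, of 0.96 and 1.02. Upk1a had ratios of 1.08 and 0.98, but the rule used Upk1a to split these cells, so its values are a description.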

How the results depend on the processing

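In all, 15 alternatives were applied to 8 main results, 216 named genes and 26 gene lists. One of them, leaving out cells with endothelial transcripts, was chosen after seeing the data. Limiting the uroplakin share to 25% left 105 Tom- and 20 Tom+ members, with 718 genes higher and 1192 lower in Tom+, 235 above and 97 below uroplakin-dominant cells, and a tdTomato ratio of 27.1. Without barcodes found in both libraries 117 genes were higher and 582 lower. With every cell given the same weight these were 263 and 396, and the tdTomato ratio 16.6. A pseudocount of 5 CPM gave 20 and 114, and 74 above uroplakin-dominant cells. No filter on low values gave 528 and 1440, with 221 above and 90 below, and a filter of 50 CPM gave 7 and 13, with 35 above and 22 below. Thinning to 2000 UMIs per cell gave 521 and 851, 38 above, and a Krt5 ratio of 1.06. The causes were not tested, except that filters change the genes tested and the share limit, barcodes and thinning leave fewer UMIs. The other alternatives kept each of the 8 within 1.5 times, or within its counting interval.

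Some named genes turned direction on the log2 scale. With stricter cells (2000 UMIs, 1000 genes, 10% mitochondrial) Svs2 turned to 0.18 and Pate4 to 0.22, with at least 5000 UMIs to 0.15 and 0.20, and with at least 3 Krt5 UMIs to 0.17 and 0.20. Without barcodes found in both libraries Fabp4 turned to -2.26 and Tmem252 to -3.82. Without cells holding endothelial transcripts Fabp4 turned to -0.56, Tmem252 to -0.17, Plvap to 0.22 and Edn1 to 0.030. Without doublet calls Flt1 turned to 0.85, Cxcl12 to 0.26 and Rsad2 to 0.31. With the share limit Tnfaip3 turned to 0.84, Plvap to 0.42 and Gjb2 to -0.45. With thinning Bex1 turned to 1.48, Flt1 to 0.67, Dmkn to 0.51, Plvap to 0.25, mt-Nd6 to 0.082 and Gjb2 to -3.19. The cause was not tested. Of the 8 ranked genes past 1.5 times, Gsta2 missed it under 5 alternatives, Papss1 under 4, Fabp4 under 3, and Klf6, Gstp1 and Sprr2a3 under 1 each. Of the 24 ranked genes, 18 kept their direction under all 15 alternatives, and Hist1h1c ranged from 0.81 to 1.31, Gstp1 from 0.50 to 0.78, Peg3 from -1.08 to -0.79 and Klf6 from -0.79 to -0.54. The equal-weight mean over sub-clusters was not run, since only 1 sub-cluster had at least 30 cells of each library. Depth limits genes under about 10 CPM in Tom+ members, where 3 UMIs are 1.26 CPM.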
